A study of Rattus norvegicus with 6 samples.

Results

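Chemokine and inflammatory response genes were followed in islets of rat fetuses from glucose-infused uterine horns and of littermates from the opposite horns. The set was given by name and no measured value enters the rule, but it was chosen with earlier results of these data known. Its counts against all genes are therefore descriptions. Of its 10 genes, 9 had a row among the 17321 genes counted, namely the chemokine genes Cxcl1, Cxcl2, Ccl2 and Cxcl10, the cytokine genes Il6 and Il1b, the adhesion gene Icam1, the inhibitor gene Nfkbia and the acute-phase gene Lcn2. The level of Tnfaip3 was not analysed here. All 9 passed the filter on low counts and were tested.

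The high glucose group held 3 libraries from Sprague Dawley fetuses of gestational day 22, whose left horn was infused with glucose at 4 mg/min for 48 h. The control group held 3 libraries of fetuses from the normoglycemic right horn of the same 3 dams, so the libraries form 3 dam pairs. Each library came from hand-picked islets of 2 pooled pancreata that had spent 24 h in medium with 5 mM glucose, so every value describes islets after culture. Horn side and treatment went together in all pairs and cannot be told apart. The horn letter in the file name and in the alignment name was the opposite of that in the sample title in 6 of 6 libraries. Groups follow the treatment labels, and every direction below would turn if the file names were right.

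Total counts lay between 22643755 and 30229658 in high glucose and between 18077841 and 30993532 in control. The 9 genes had between 25 and 38188 counts per library. For the lowest of these counts, 25 for Cxcl2 in a control library, the exact 95% Poisson interval was 16.2 to 36.9, which covers counting error only. Levels within a gene are in CPM (counts scaled to a common library total) with TMM-scaled library sizes, and levels between genes are in TPM, which also divides by gene length. As a check of the tissue label, 7 beta cell markers summed to between 4923 and 18540 CPM in high glucose and between 11152 and 22751 CPM in control. The 8 mesenchyme markers summed to between 21049 and 29987 CPM in high glucose and between 15293 and 35332 CPM in control, so the preparations held connective tissue beside endocrine cells. Marker sums differed within dams, and ratios of high glucose to control were 1.66, 0.80 and 0.22 in pairs 1, 2 and 3 for the beta cell sum, and 0.76, 1.46 and 17.9 for 10 acinar (digestive enzyme) markers, which summed to 752 CPM in high glucose and 41.9 CPM in control in pair 3. In bulk RNA fewer cells of a type cannot be told apart from less RNA per cell.

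Chemokines are small secreted proteins that draw leukocytes along a gradient. Signals from interleukin-1, tumour necrosis factor and microbial products release the transcription factor NF-κB from its inhibitor IκBα, and NF-κB then switches on chemokine, cytokine and adhesion genes and, as a brake, the IκBα gene Nfkbia itself. Cxcl1 and Cxcl2 attract neutrophils, Ccl2 attracts monocytes, and Cxcl10, which interferons induce, attracts activated T cells. Islet cells and the macrophages of the islet are both known to make such factors, and isolated islets switch on several of them in culture.

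The start regions of 4 of the genes are shown as examples. The courses of these 4 over the 3 dam pairs, described below, differed from each other, and a link to the letters was not tested. Each window covers 250 bases before and 50 bases after the RefSeq gene start on the gene's own strand, from a RefSeq table of the GRCr8 assembly that held 9 of the 10 named genes (all but Ccl2). Capitals mark matches to the NF-κB consensus on either strand and, in Cxcl10 alone, also a match to the interferon-stimulated response element TTTCNNTTTC at the left end of the window.
Cxcl1 (chr14:17479272-17479571, minus strand): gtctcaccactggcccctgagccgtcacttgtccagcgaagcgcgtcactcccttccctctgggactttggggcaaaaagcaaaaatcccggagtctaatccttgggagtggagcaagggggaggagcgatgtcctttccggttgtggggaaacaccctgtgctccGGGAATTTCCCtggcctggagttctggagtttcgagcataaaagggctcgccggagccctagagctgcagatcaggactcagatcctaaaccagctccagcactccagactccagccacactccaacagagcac
Cxcl2 (chr14:17467206-17467505, minus strand): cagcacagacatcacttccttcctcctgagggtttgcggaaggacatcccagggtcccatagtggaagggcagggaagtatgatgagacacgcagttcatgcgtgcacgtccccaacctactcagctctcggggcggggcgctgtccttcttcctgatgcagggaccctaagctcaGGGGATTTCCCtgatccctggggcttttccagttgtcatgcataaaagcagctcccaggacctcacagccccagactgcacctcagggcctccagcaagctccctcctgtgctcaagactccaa
Cxcl10 (chr14:15988816-15989115, plus strand): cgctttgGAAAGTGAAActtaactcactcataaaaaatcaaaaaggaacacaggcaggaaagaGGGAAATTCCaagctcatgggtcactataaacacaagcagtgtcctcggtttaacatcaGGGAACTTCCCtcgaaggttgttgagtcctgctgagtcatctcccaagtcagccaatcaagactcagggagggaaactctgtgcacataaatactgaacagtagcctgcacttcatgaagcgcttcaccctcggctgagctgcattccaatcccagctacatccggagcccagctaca
Lcn2 (chr3:36081731-36082030, minus strand): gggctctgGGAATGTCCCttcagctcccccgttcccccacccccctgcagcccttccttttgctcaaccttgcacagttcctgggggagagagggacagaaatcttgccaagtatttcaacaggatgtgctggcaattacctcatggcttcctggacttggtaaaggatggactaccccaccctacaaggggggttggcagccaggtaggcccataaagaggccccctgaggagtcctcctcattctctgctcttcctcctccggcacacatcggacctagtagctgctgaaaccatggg

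Of the 9 genes in that table, 7 held the NF-κB consensus, which occurred in 7.51% of 33469 windows of the same length. In Cxcl1 and Cxcl2 the match lay close to the start, with first bases at -84 and -74, and overlapped matches on the other strand. Il6 held one at -68, Nfkbia one at -31 on the other strand, and Lcn2 a single one at -242. Cxcl10 held separate matches at -187 and -128, and its response element match at -243, a motif found in 3.92% of windows. Cxcl10 and Tnfaip3 held the AP-1 motif TGANTCA, found in 7.33% of windows. Icam1 and Il1b had no match to these letters in this window. The set holds known targets of this pathway, so the share is a description. A match describes the letters and is not evidence of binding.

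None of the 9 genes passed the test for a difference between high glucose and control (edgeR quasi-likelihood test with dam as a block, Benjamini-Hochberg adjusted p below 0.05 over 12276 genes), where 0.0163% of all genes did. Their edgeR adjusted p lay between 0.553 and 0.9996. At an unadjusted p below 0.05 there were 2 of the 9, Lcn2 (higher) and Il1b (lower), against 4.82% of all genes (1.67% higher and 3.15% lower). By DESeq2 Lcn2 alone of the 9 was called, against 0.863% of all genes. The median fitted log2 difference of the 9 genes was -0.06, against 0.00 for all genes tested. In all 9 genes the high glucose and control libraries overlapped, whereas 3.31% of all genes had groups that did not overlap. In CPM only Lcn2 was higher in all 3 pairs, and Ccl2 and Cxcl10 were lower in all 3, against 11.7% and 11.3% of all genes. For Ccl2 and Cxcl10 the direction in pair 3 depended on the scaling. In TPM both were higher in high glucose there (Ccl2 352 against 285, Cxcl10 7.39 against 6.30). The dam pairs differed in direction, since 8 of the 9 genes were lower in high glucose in pair 1, but 3 in pair 2 and 4 in pair 3. The median log2 difference of all genes tested was 0.00, 0.02 and -0.02 in pairs 1, 2 and 3. The control library of pair 1 was the highest of all 6 for 6 of the 9 genes, namely Cxcl2, Ccl2, Il6, Il1b, Nfkbia and Icam1. The share of all genes that were highest in that library was not counted, so this is a description only. Without pair 1 edgeR called 0 of the 9, and the fitted values of Cxcl2 and Nfkbia changed sign.

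**Figure D1:**
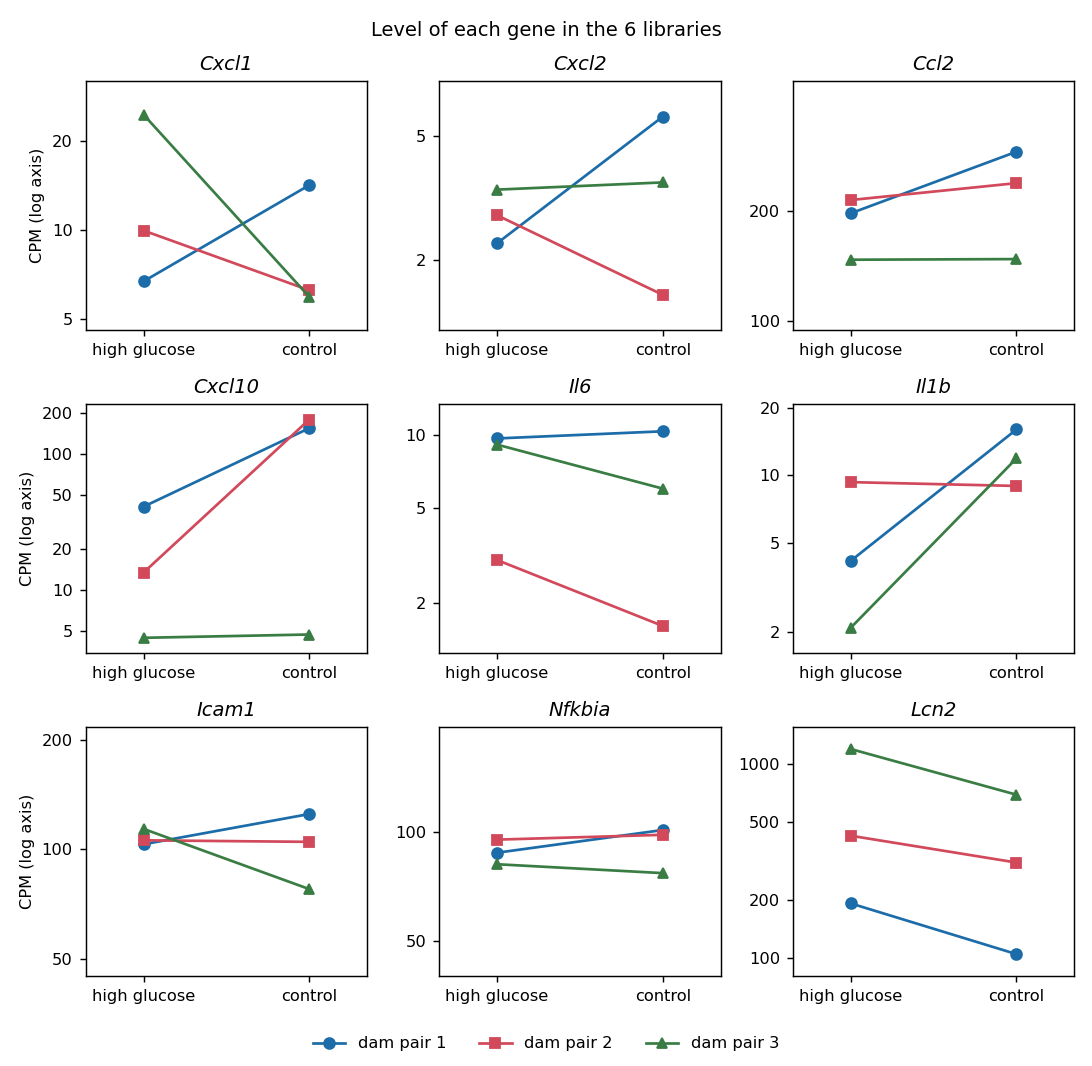
CPM (log axis) of each of the 9 genes in the 3 high glucose libraries (left in each panel) and the 3 control libraries (right), with a line joining libraries of the same dam. Lcn2 measured 191, 426 and 1189 CPM in high glucose and 105, 310 and 692 CPM in control, and its lines slope the same way in all 3 pairs. Those of Ccl2 and Cxcl10 slope the other way in all 3 pairs, though in pair 3 they are nearly level. Those of the remaining 6 genes slope in both directions.

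Per length of transcript, Lcn2 was the most abundant of the 9 genes, with a mean of 908 TPM over the 6 libraries and rank 154 of all genes. Ccl2 followed at 423 TPM. Nfkbia, Cxcl10 and Icam1 had means of 92.1, 91.8 and 65.5 TPM, Cxcl1 20.5, Il6 11.02, Il1b 10.6 and Cxcl2 4.85 TPM. The order of neighbours held in all 6 libraries only for Ccl2 above Nfkbia and for Icam1 above Cxcl1. Lcn2 was above Ccl2 in 4 of 6 libraries, Cxcl10 above Icam1 in 2 and Il6 above Il1b in 2, so these neighbours did not separate beyond their spread. Between the highest and the lowest library the level of Cxcl10 in TPM differed 40.4-fold and that of Lcn2 11.3-fold, but that of Nfkbia only 1.63-fold.

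The neutrophil chemokine genes Cxcl1 and Cxcl2 lie side by side on chromosome 14 (rn6, minus strand; Cxcl1 18743678 to 18745457, 4 exons; Cxcl2 18731346 to 18733391, 4 exons). They are close paralogs, so their counts are uncertain where read pairs map to both, and how many did was not measured. Cxcl1 measured 6.70, 9.96 and 24.6 CPM in the high glucose libraries of pairs 1, 2 and 3, against 14.2, 6.25 and 5.93 CPM in control. The high glucose library of pair 3 was the highest of all 6 and the control library of pair 3 the lowest, while pair 1 had the opposite order. In pair 3 the beta cell sum had a ratio of 0.22 and the acinar sum one of 17.9, and their part in the Cxcl1 difference was not tested. The log2 differences were -1.08, 0.67 and 2.04, and the fitted value was 0.56 (SE 0.67, 95% interval -1.20 to 2.31, edgeR adjusted p = 0.9996). Without pair 3 the fitted value was -0.22, and without pair 1 it was 1.38 (edgeR adjusted p = 0.21).

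Cxcl2 measured 2.26, 2.78 and 3.36 CPM in high glucose, against 5.77, 1.55 and 3.55 CPM in control. Control held both the highest and the lowest library, and the high glucose libraries lay between them. Log2 differences were -1.32, 0.82 and -0.08, with a fitted value of -0.22 (SE 0.49, edgeR adjusted p = 0.9996) that turned to 0.35 without pair 1. Both genes were lower in high glucose in pair 1 and higher in pair 2, and in pair 3 they parted, with a CPM ratio of 4.15 for Cxcl1 and 0.95 for Cxcl2.

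Ccl2, the monocyte chemokine gene (chromosome 10, plus strand, 69412065 to 69413863, 3 exons), measured 197, 214 and 147 CPM in high glucose, against 291, 238 and 147 CPM in control. The libraries of pair 3 were nearly equal and the lowest in each group, and the groups overlapped. The log2 differences were -0.56, -0.15 and -0.01, with a fitted value of -0.24 (SE 0.19, 95% interval -0.66 to 0.18, edgeR adjusted p = 0.9996). Without pair 1 this value was -0.08.

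Cxcl10, the interferon-induced chemokine gene (chromosome 14, plus strand, 17210733 to 17212930, 4 exons), had the widest range. It measured 41.0, 13.5 and 4.48 CPM in high glucose, against 154, 178 and 4.74 CPM in control. Control libraries of pairs 1 and 2 stood far above the other 4, and both libraries of pair 3 were low. The CPM ratio of high glucose to control was 0.27, 0.08 and 0.95 in the 3 pairs. With such unequal pairs the fitted log2 difference was -1.96 (SE 0.98, 95% interval -5.23 to 1.32, edgeR adjusted p = 0.9996), and -1.05 without pair 2. A list of 16 interferon-induced genes was, like Cxcl10, lower by its sum in pairs 1 and 2. In pair 3, where Cxcl10 was nearly equal, the list was lower as well (median log2 difference -0.47). Its summed level was 631, 518 and 308 CPM in high glucose, against 1550, 1800 and 420 CPM in control, ratios of 0.41, 0.29 and 0.73. Within this list 15 genes were lower in all 3 pairs and 0 were called by edgeR (15 at an unadjusted p below 0.05, and 12 called by DESeq2, all lower). Of all genes 11.3% were lower in all 3 pairs and 3.15% were lower at an edgeR unadjusted p below 0.05. DESeq2 called 0.863% of all genes in either direction. The part of this list in the Cxcl10 difference was not tested.

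The cytokine genes differed from each other. Il6, which drives acute-phase responses (chromosome 4, plus strand, 3043231 to 3047807, 5 exons), measured 9.71, 3.03 and 9.15 CPM in high glucose, against 10.4, 1.61 and 6.002 CPM in control. Both libraries of pair 2 were low, so that Il6 followed the dam more than the horn. Log2 differences were -0.10, 0.88 and 0.60, with a fitted value of 0.45 (SE 0.33, 95% interval -0.28 to 1.18, edgeR adjusted p = 0.9996). It was 0.74 without pair 1 and 0.25 without pair 2.

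Il1b, the gene of interleukin-1β (chromosome 3, minus strand, 121876259 to 121882637, 7 exons), a cytokine made mainly by macrophages and neutrophils, measured 4.15, 9.33 and 2.09 CPM in high glucose, against 16.02, 8.97 and 11.9 CPM in control. Low values were found in the high glucose libraries of pairs 1 and 3, while the libraries of pair 2 were nearly equal and made the groups overlap. The means were 5.19 ± 3.73 CPM in high glucose and 12.3 ± 3.54 CPM in control (SD, n = 3 each). Its log2 differences were -1.93, 0.06 and -2.47, with a fitted value of -1.49 (SE 0.51, 95% interval of this gene alone -2.70 to -0.27, edgeR unadjusted p = 0.0229, adjusted p = 0.87). Without pair 2 it was -2.22 (edgeR adjusted p = 0.11), and without pair 3 it was -0.95.

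Summed neutrophil markers, like Il1b, were lower in high glucose in pairs 1 and 3. The 10 neutrophil markers summed to 118, 67.6 and 37.7 CPM in high glucose, against 375, 67.4 and 152 CPM in control, ratios of 0.32, 1.004 and 0.25, where Il1b had 0.26, 1.04 and 0.18. All 6 tested neutrophil markers had a fitted value below 0, and 3 were lower in all 3 pairs, against 11.3% of all genes. Np4, a neutrophil defensin gene, was called by edgeR, as were 0.0163% of all genes. None of the 10 was at 0 in every library, but Np4 had no count in the high glucose libraries of pairs 2 and 3. Lyz2, which macrophages also express, held more of the summed CPM than the other 9 markers together in each of the 6 libraries, for example 199 of 375 CPM in the control library of pair 1. Without Lyz2 the other 9 had ratios of 0.0274, 1.17 and 0.0625, further below 1 than Il1b in pairs 1 and 3. S100a9, one of the neutrophil markers, measured 1.32, 3.95 and 0.40 CPM in high glucose, against 82.9, 2.60 and 17.4 CPM in control. The 12 macrophage markers summed to 902, 681 and 552 CPM in high glucose, against 1159, 868 and 993 CPM in control, ratios of 0.78, 0.78 and 0.56. Of these, 6 were lower in all 3 pairs and 0 were called by edgeR (6 at an unadjusted p below 0.05, all lower, and 0 called by DESeq2). The shares of all genes were 11.3% lower in all 3 pairs and 3.15% lower at an edgeR unadjusted p below 0.05. The part of these markers in the Il1b difference was not tested.

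**Figure D2:**
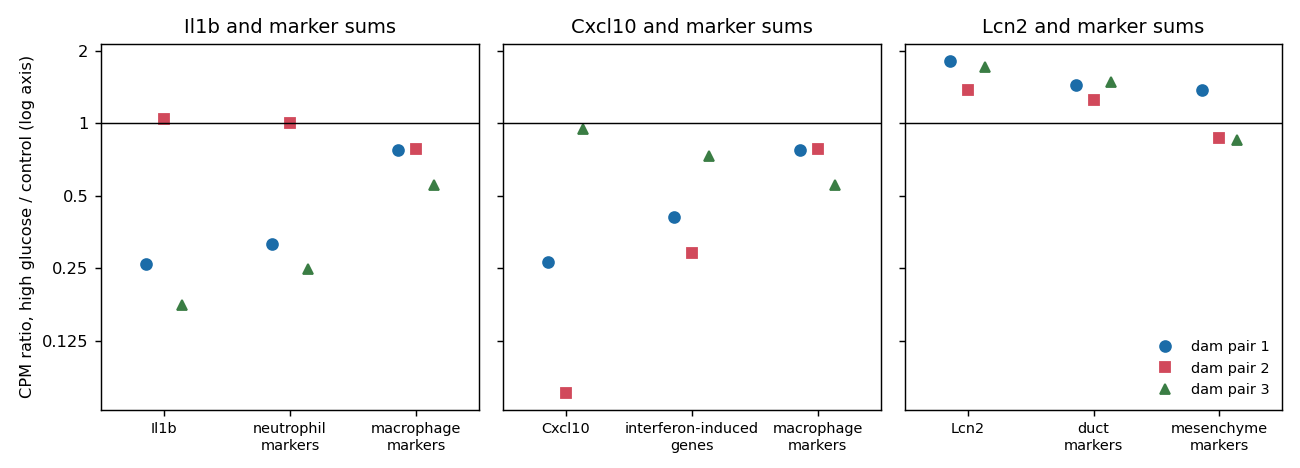
Ratio of CPM in high glucose to CPM in control of the same dam (log axis) for Il1b, Cxcl10 and Lcn2 and for the summed CPM of marker lists, with 1 point per dam pair and a line at equal levels. Il1b and the neutrophil sum were near 1 in pair 2 (1.04 and 1.004) and low in pairs 1 and 3, Cxcl10 and the interferon sum were lowest in pair 2, and Lcn2 and the duct sum were above 1 in all 3 pairs.

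Icam1 and Nfkbia held close to one level. Icam1, a cell surface protein that leukocytes bind through integrins (chromosome 8, plus strand, 22035287 to 22047049, 7 exons), measured 103, 106 and 114 CPM in high glucose, against 124.999, 105 and 77.8 CPM in control. The high glucose libraries lay within the range of the control libraries. Log2 differences were -0.28, 0.01 and 0.55, and the fitted value was 0.10 (SE 0.20, 95% interval -0.35 to 0.54, edgeR adjusted p = 0.9996). It turned to -0.13 without pair 3, the pair with the beta cell ratio of 0.22 and the acinar ratio of 17.9, whose part was not tested.

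Nfkbia (chromosome 6, minus strand, 76267227 to 76270457, 6 exons), whose transcript is a common readout of NF-κB activity, measured 87.7, 95.2 and 81.5 CPM in high glucose, against 101, 98.2 and 77.0 CPM in control. No library stood apart. The log2 differences of -0.21, -0.04 and 0.08 gave a fitted value of -0.06 (SE 0.17, edgeR adjusted p = 0.9996), with a sign that turned without pair 1 (0.0155). Its 95% interval ran from -0.44 to 0.33, so larger differences in either direction lay outside the interval of this gene.

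Lcn2 encodes lipocalin 2, an iron-siderophore-binding protein of neutrophil granules and of stressed epithelia (chromosome 3, minus strand, 11414189 to 11417534, 6 exons). It measured 191, 426 and 1189 CPM in high glucose, against 105, 310 and 692 CPM in control. In each dam the high glucose library was the higher one, yet the dams differed more than the horns, and the control library of pair 3 lay above 2 of the 3 high glucose libraries. The means were 602 ± 522 CPM in high glucose and 369 ± 298 CPM in control (SD, n = 3 each). CPM ratios were 1.82, 1.37 and 1.72, and the log2 differences 0.87, 0.46 and 0.78. The fitted value was 0.70 (SE 0.20, 95% interval of this gene alone 0.27 to 1.14, edgeR unadjusted p = 0.00485, adjusted p = 0.55), and higher in 3 of 3 pairs. DESeq2 gave 0.71 with an adjusted p of 0.0452, and among all genes DESeq2 called 0.171% as higher. Without the dam block the SE grew to 0.76 and Lcn2 was not called by edgeR.

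The summed duct markers were higher in high glucose in all 3 pairs, as was Lcn2, but in pair 1 the sum without Spp1 was nearly equal in both libraries. The 9 duct markers with a row summed to 4353, 4540 and 8717 CPM in high glucose, against 3008, 3625 and 5850 CPM in control, ratios of 1.45, 1.252 and 1.49. Of these 9, 4 were higher in all 3 pairs, 8 had a fitted value above 0 and 0 were called by edgeR (2 at an unadjusted p below 0.05, both higher, and 1 called by DESeq2, Cftr). Of all genes 11.7% were higher in all 3 pairs and 50.68% had a fitted value above 0. At an edgeR unadjusted p below 0.05, 1.67% of all genes were higher, and DESeq2 called 0.171% as higher. None of the 9 duct markers was at 0 in every library. The secreted phosphoprotein gene Spp1 took the largest part of that sum of CPM in 5 of 6 libraries, with 2381, 1614 and 4873 CPM in high glucose, against 1039, 1136 and 3263 CPM in control. Without Spp1 the other 8 had ratios of 1.001, 1.18 and 1.486, and in pair 1 Krt19, Krt8 and Tspan8 had log2 differences of -0.50, -0.35 and -2.02, where Lcn2 had a CPM ratio of 1.82. Mesenchyme markers had ratios of 1.38, 0.87 and 0.85. Neutrophil markers, whose cells also store lipocalin 2, had ratios of 0.32, 1.004 and 0.25. The part of duct markers in the Lcn2 difference was not tested.

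**Figure D3:**
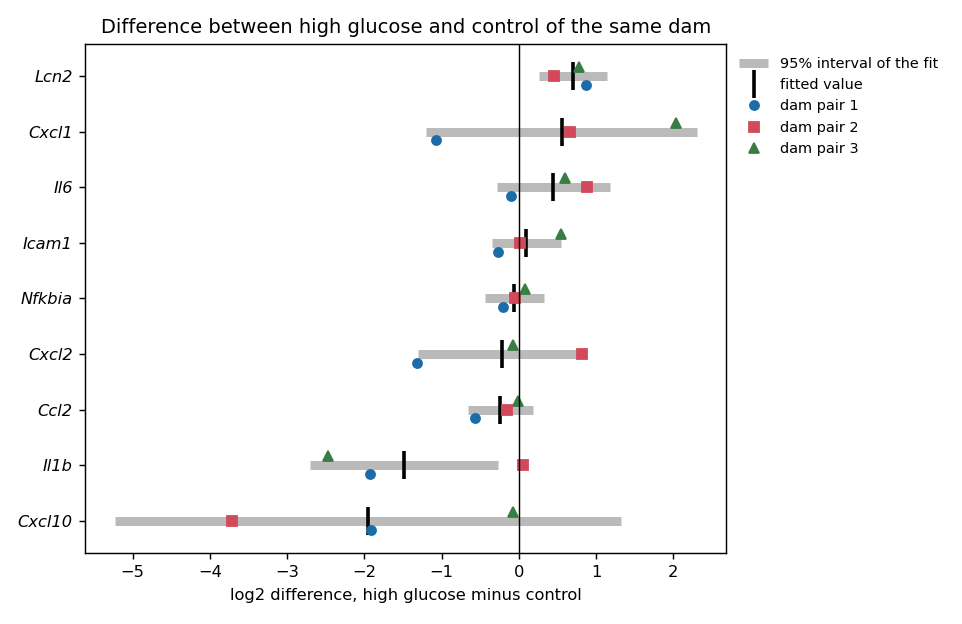
Log2 difference of high glucose minus control for the 9 genes, with 1 symbol per dam pair, the fitted value as a black bar and its 95% interval, unadjusted for the number of genes, as a grey band. The interval lies above 0 for Lcn2 (0.27 to 1.14) and below 0 for Il1b (-2.70 to -0.27), and it covers 0 for the other 7 genes.

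Differences between dams were as large as those between horns for several genes. The mean log2 CPM of the 2 libraries of a dam ranged over 4.09 for Cxcl10, 2.68 for Lcn2 and 2.15 for Il6 across the 3 dams. Largest within-dam differences were 3.72, 0.87 and 0.88 for these genes. For Cxcl1 and Il1b the largest within-dam differences, 2.04 and 2.47, exceeded the range between dams of 0.61 and 0.86. Nfkbia and Icam1 varied least, with ranges of 0.29 and 0.27 between dams.

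Likeness of profiles was measured as the root mean square difference of mean-centred log2 CPM over the 6 libraries, which are too few to single out a partner. Among the 9 genes Nfkbia and Icam1 had the smallest difference (0.15), followed by Ccl2 and Nfkbia (0.22), and Cxcl10 and Lcn2 the largest (3.19). This measure is small for any 2 genes that vary little. The SD of the profile itself was 0.14 for Nfkbia, 0.21 for Icam1, 0.36 for Ccl2, 1.15 for Lcn2 and 2.16 for Cxcl10. The order thus largely follows spread, and no shared pattern of Nfkbia with Icam1 or Ccl2 is shown. The paralogs Cxcl1 and Cxcl2 differed by 0.65. Among 11241 other genes the closest to Cxcl10 was Ifit3 (0.38), to Ccl2 Igtp (0.07), to Il1b P2ry14 (0.29), to Lcn2 Matn4 (0.20) and to Il6 Ankle2 (0.10). Those closest to Cxcl1, Cxcl2, Nfkbia and Icam1 were Fermt1 (0.27), Cgref1 (0.13), Ubox5 (0.03) and Ppp1r10 (0.03).

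Other chemokine ligand genes had a median below that of all genes, and edgeR called none of them. Of 31 in the list 26 were tested and 0 passed the edgeR test. At an edgeR unadjusted p below 0.05 there were 6, of which 5 were lower, against 4.82% of all genes (3.15% lower). Of the 26 ligands 20 had a fitted value below 0, whereas 50.68% of all genes had one above 0. The median log2 difference was -0.56, against 0.00 for all genes tested, with medians of -1.002, 0.00 and 0.11 in pairs 1, 2 and 3. DESeq2 called 2 of the ligands, both lower, against 0.863% of all genes in either direction. Ccl21, which guides lymphocytes and dendritic cells into lymphoid tissue, measured 30.9, 33.3 and 8.50 CPM in high glucose, against 63.0, 114 and 23.4 CPM in control. It was lower in 3 of 3 pairs with a fitted value of -1.42 (SE 0.21, edgeR adjusted p = 0.11), and it was called without pair 1 (edgeR adjusted p = 0.00493), without pair 3 (edgeR adjusted p = 0.0028) and by DESeq2. Cxcl11, like Cxcl10 an interferon-induced ligand of the receptor Cxcr3, measured 8.74, 2.78 and 2.30 CPM in high glucose, against 18.5, 5.88 and 7.30 CPM in control. It was lower in 3 of 3 pairs, with a fitted value of -1.27 (SE 0.30, edgeR adjusted p = 0.34; called by DESeq2). Cxcl16, a membrane-bound chemokine, had the highest mean CPM of the list (not corrected for length), with 202, 294 and 178 CPM in high glucose against 226, 284 and 144 CPM in control. Cxcl6, a neutrophil chemokine gene named here after its values were seen, measured 4.46, 16.6 and 51.3 CPM in high glucose against 9.45, 3.71 and 16.4 CPM in control, and it was called as higher without pair 1 (log2 1.88, edgeR adjusted p = 0.00412).

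Receptors and antagonists of these ligands gave no call by edgeR and 1 by DESeq2. Of 17 in the list 15 had a row and 12 were tested, and 0 passed by edgeR (1 at an unadjusted p below 0.05), with a median log2 difference of -0.11. The neutrophil chemokine receptor genes Cxcr1 and Cxcr2 were too low to be tested. Itgal, the leukocyte integrin chain that binds Icam1, measured 31.0, 13.2 and 6.01 CPM in high glucose, against 59.6, 21.9 and 34.5 CPM in control. Its fitted value was -1.38 (SE 0.36, edgeR adjusted p = 0.57), and DESeq2 called it as lower. Il6st, the signalling chain of the Il6 receptor, had the highest CPM of the list, with 729, 706 and 499 CPM in high glucose against 711, 658 and 434 CPM in control. Lrp2, an endocytic receptor that can take up lipocalin 2, was higher in 3 of 3 pairs at 1.73, 1.07 and 3.99 CPM in high glucose against 1.22, 0.68 and 1.43 CPM in control (edgeR adjusted p = 0.9996).

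The genes of the NF-κB pathway itself had a median close to that of all genes. All 36 of its genes with a row, out of 39, were tested, and 0 passed by edgeR, by DESeq2 or at an unadjusted p below 0.05. The median log2 difference was -0.01, with 17 genes above 0 and 19 below. By pair the medians were -0.25, -0.02 and 0.31 in pairs 1, 2 and 3, so the list was not level in every dam. Tnfrsf1a, the main receptor of tumour necrosis factor, had the highest CPM of the list, with 321, 476 and 267 CPM in high glucose against 331, 607 and 244 CPM in control. Traf1, an adaptor that NF-κB induces, measured 4.34, 8.06 and 6.10 CPM in high glucose against 12.2, 10.5 and 7.33 CPM in control. Nfkbiz, a nuclear cofactor of NF-κB needed for Lcn2 induction in mouse cells, measured 12.6, 11.1 and 25.1 CPM in high glucose against 15.2, 6.43 and 8.94 CPM in control (fitted value 0.67, SE 0.34, edgeR adjusted p = 0.9996).

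Of 34 other cytokine, adhesion and acute-phase genes 30 were tested and 0 passed by edgeR or DESeq2. At an edgeR unadjusted p below 0.05 there were 4 higher and 4 lower, against 1.67% and 3.15% of all genes. The median log2 difference was 0.13, with medians of -0.21, 0.15 and 0.43 in pairs 1, 2 and 3. Il33, an alarmin of epithelial and stromal cells, had the highest CPM of the list, with 277, 315 and 1042 CPM in high glucose against 170, 220 and 749 CPM in control, and it was higher in 3 of 3 pairs (fitted value 0.57, SE 0.19, edgeR adjusted p = 0.76). The complement gene C3 measured 254, 134 and 738 CPM in high glucose against 202, 84.6 and 272 CPM in control (fitted value 0.81, SE 0.23, edgeR adjusted p = 0.57). Mmp9, a matrix protease of leukocytes, measured 44.5, 64.3 and 40.5 CPM in high glucose against 74.6, 78.6 and 78.8 CPM in control. Its groups did not overlap, and the fitted value was -0.67 (SE 0.20, edgeR adjusted p = 0.57).

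**Figure D4:**
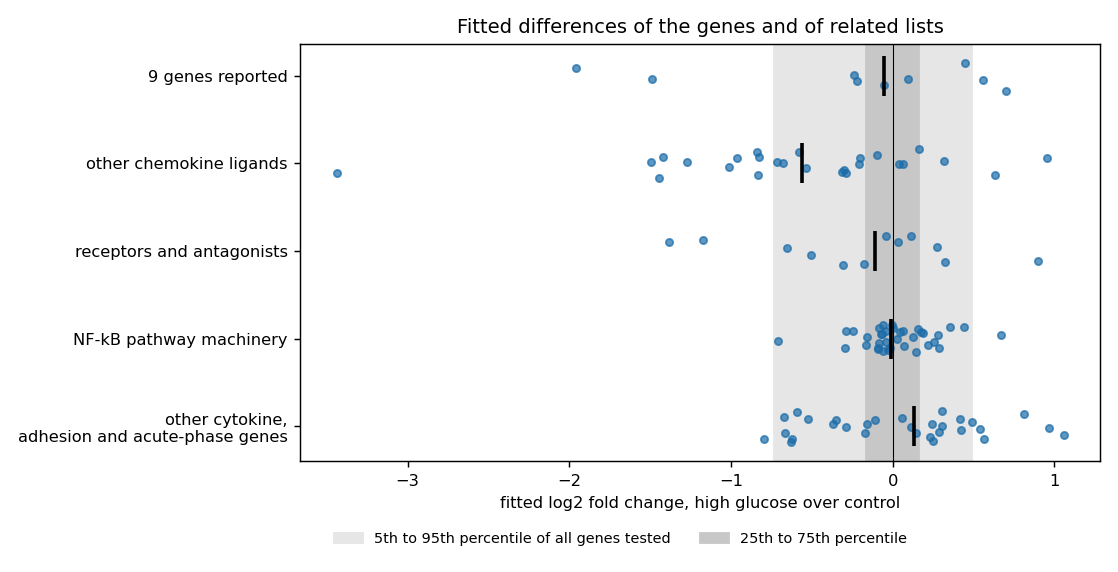
Fitted log2 fold change of high glucose over control for the 9 genes and for the tested genes of 4 related lists, with 1 point per gene (vertical position within a row is arbitrary) and a black bar at the median. Grey bands give the middle of all 12276 genes tested, and the median of the other chemokine ligands (-0.56) lies to the left of the inner band, whereas that of the NF-κB pathway (-0.01) lies within it.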

How the data were processed

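RNA sequencing covered 6 libraries, 3 of high glucose and 3 of control, in 3 dam pairs. Deposited files hold unnormalized gene counts (read pairs), which the authors obtained with featureCounts 1.5.1 on the rn6 refGene annotation, with strand setting 2 and a mapping quality of at least 10, per the file headers. STAR 2.5 and edgeR 3.12.1 are named in the submitters' processing notes. Groups come from the treatment labels and pairs from the stem shared by the sample titles, which the series design describes as horns of the same dam. Deviations from the group means correlated at 0.474, 0.621 and 0.413 across genes for libraries of the same dam, and at -0.454 to -0.00448 for different dams. Within each group every pair of libraries differed beyond counting noise.

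The test was that of edgeR 4.0.16, run in R 4.3.3 (filterByExpr, TMM, robust quasi-likelihood F-test, dam pair as a block plus treatment, Benjamini-Hochberg over 12276 genes, threshold 0.05). Log2 differences per pair use log2 CPM with a prior count of 2. Fitted differences are high glucose minus control. P-values set the difference against the spread between these 3 dam pairs, with a variance for each gene that is moderated by those of the other genes tested. The script was tested on simulated data. DESeq2 1.42.0, RLE factors, no filter, no block and leaving out each pair were the alternatives.

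The 10 genes and all lists were chosen with earlier results of these data known. Named list genes are the most abundant and the 2 with the smallest p of each list, and the closest profile to each of the 9 genes among genes with a mean of at least 1 CPM. Lists are described by counts and medians. Promoters are RefSeq sequences of GRCr8, and gene coordinates are rn6. A search of synonyms in a GRCr8 gene table, used for names only, added no list gene. Np4, Lyz2, S100a9, Spp1, Cftr, Krt19, Krt8 and Tspan8 were named from the marker lists after their values were seen.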

Additional observations from a re-analysis of the deposited data

How the results depend on the processing

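The number of genes called over all genes was 2 with edgeR and 2 with RLE factors. It was 18 with no filter, 106 with DESeq2, and 18 to 55 when 1 pair was left out. The fit with no replicate block, which ignores the dam pairing, called 0 genes. Of the 9 genes 0 were called under every alternative except DESeq2, which called 1, Lcn2 (log2 difference 0.71). Of the other chemokine ligands 1 was called with no filter and 2 with DESeq2, and 0 to 2 without 1 pair. One pair less gave 0 to 1 calls among the other cytokine, adhesion and acute-phase genes (Ptges, higher without pair 1). DESeq2 called 1 gene of the receptor list, Itgal. The NF-κB pathway list had 0 calls under every alternative. When 1 pair was left out, the log2 difference ranged from -0.22 to 1.38 for Cxcl1, from -0.71 to 0.35 for Cxcl2, from -0.12 to 0.0155 for Nfkbia and from -0.13 to 0.28 for Icam1, so their sign hung on single pairs. The other 5 genes kept their sign under all 7 alternatives, with ranges over them of 0.62 to 0.82 for Lcn2, 0.25 to 0.74 for Il6, -0.36 to -0.08 for Ccl2, -2.22 to -0.95 for Il1b and -2.80 to -1.05 for Cxcl10. The cause of these shifts was not tested.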

Other observations

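Of the 26 chemokine ligand genes tested, 10 had their highest level in the control library of pair 1, as had 6 of the 9 inflammatory genes. Another 8 of the 26 were highest in the control library of pair 2. The shares over all genes were not counted, so these counts are not a trait of the ligands. Ccl19 and Ccl20 are given here, chosen after their values were seen. Ccl19, a chemokine of lymphoid tissue, measured 0.41, 0.63 and 0.44 CPM in high glucose, against 40.6, 6.31 and 0.24 CPM in control (edgeR adjusted p = 0.9996). Ccl20, which attracts dendritic cells and lymphocytes, measured 2.17, 2.49 and 6.23 CPM in high glucose, against 24.0, 3.53 and 1.88 CPM in control (edgeR adjusted p = 0.9996). The control library of pair 1 was also the highest for the summed neutrophil markers (375 CPM). Genes of the immediate early response, which handling of tissue is known to induce, had a median log2 difference of 0.06 over 12 genes. By pair their medians were -0.11, -0.37 and 0.38 in pairs 1, 2 and 3. Of the 12, 0 were called by edgeR, by DESeq2 or at an edgeR unadjusted p below 0.05. A difference in handling was not tested.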
